A study of Mus musculus with 9 samples.

Results

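The 9 genes described here are core parts of the hedgehog signalling pathway: the ligands Ihh, Shh and Dhh, the receptor Ptch1, the inhibitor Hhip, the transducer Smo and the transcription factors Gli1, Gli2 and Gli3. They were chosen by name, with their read counts in these libraries already known. Their differences between WT_EV, DXp and DXp_DXm are therefore given as a description, with no p-value. All 9 were found among the 55401 genes of the main count table, and 6 of them (Hhip, Ptch1, Smo, Gli3, Ihh and Dhh) passed the filter on low counts that left 15331 genes for testing.

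The libraries came from XEN cells, a female stem cell line of the mouse extra-embryonic endoderm, from a cross of Mus musculus molossinus and Mus musculus. WT_EV is wild type (n = 3), DXp has lost a segment upstream of Xist on its paternal X chromosome (n = 2), DXp_DXm has lost it on both X chromosomes (n = 2), and WT_clone is a set of wild-type clones (n = 2). The titles mark both DXp libraries D1 and both DXp_DXm libraries D3. A replicate is named by the number after rep in its title, so DXp replicate 1 is the library titled D1_DeltXp_2 and replicate 2 is D1_DeltXp_1. If D1 and D3 are single clones, clone and genotype cannot be told apart, and the spread within a deletion group is that of 1 clone. The labels give neither the meaning of EV nor the borders of the deletion. They do not say whether the 3 WT_EV libraries are separate cultures, and p-values then measure a spread that may be technical. The study asked how the deletion affects Xist and genes on other chromosomes, and each of the 9 hedgehog genes lies on an autosome.

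Hedgehog ligands are secreted proteins that bind PTCH1, a membrane protein which, without ligand, holds SMO inactive. Ligand binding frees SMO, which acts through the primary cilium to keep GLI proteins from being cut into repressors, so that GLI target genes are switched on. Ptch1, Gli1 and Hhip are themselves textbook targets of the pathway, and HHIP is a membrane-anchored protein that binds hedgehog ligands and so limits the signal. In the early mouse embryo Ihh is made by the visceral endoderm, a tissue related to XEN cells.

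The promoters of Hhip and Ihh are shown because these genes had the most extreme levels: Hhip was near 0 in WT_EV, and Ihh was near 0 in both deletion groups. Each sequence is a 300-base RefSeq window of GRCm38.p6, with 250 bases before the transcription start and 50 after it, read 5′ to 3′ on the minus strand of the gene, and capitals mark CG dinucleotides. The Hhip window is chr8:80057959-80058258 and the Ihh window is chr1:74951623-74951922.
Hhip: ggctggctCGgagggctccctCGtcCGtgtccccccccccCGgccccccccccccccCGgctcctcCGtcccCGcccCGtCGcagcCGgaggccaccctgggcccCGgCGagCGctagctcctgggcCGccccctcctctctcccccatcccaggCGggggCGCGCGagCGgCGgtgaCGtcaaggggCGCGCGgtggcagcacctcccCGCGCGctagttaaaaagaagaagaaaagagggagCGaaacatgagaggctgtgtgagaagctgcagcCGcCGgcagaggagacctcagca
Ihh: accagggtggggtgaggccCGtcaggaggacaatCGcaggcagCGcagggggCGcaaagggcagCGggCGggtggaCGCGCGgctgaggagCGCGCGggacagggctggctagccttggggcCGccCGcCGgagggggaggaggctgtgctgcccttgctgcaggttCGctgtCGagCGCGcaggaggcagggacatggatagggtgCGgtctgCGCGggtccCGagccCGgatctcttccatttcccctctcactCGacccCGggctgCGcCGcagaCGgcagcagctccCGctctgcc
Both windows hold 30 CG dinucleotides, against a median of 7 over 32851 promoter windows of the same length, and 11.7% of those windows hold at least as many. Short motifs, 4 in all, were searched on both strands of the windows that RefSeq gave for 7 of the 9 genes. They were GACCACCCA, the site known for GLI proteins, its shorter part CCACCCA, the GATA-type AGATAA, and TATAAA of the TATA box. None of these letters occurred in any of the 7 windows. Among all windows, 0.253% held GACCACCCA, 9.3% CCACCCA, 11.2% AGATAA and 13.6% TATAAA. A missing match describes these windows and says nothing about binding.

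Total counts were 14352719 to 19833044 in WT_EV, 24586135 to 29335803 in DXp and 25589912 to 27334893 in DXp_DXm. The 7 genes listed as XEN and primitive endoderm markers were abundant in every library, from 22.0 CPM (read counts relative to the TMM-scaled library total) for Foxa2 in a DXp_DXm library to 2604 CPM for Dab2 in a DXp library. The neural tube markers Sox1, Pax6 and Olig2 had 0 to 4 counts per group, and the mesoderm and fibroblast markers T, Col1a1, Col1a2, Twist1 and Prrx1 had 0 or 1. Markers also differed between the groups. Of the 7 XEN markers, Sox7 and Dab2 rose and Gata4 and Foxa2 fell in both deletion groups, and Sox17 fell in DXp_DXm (edgeR, adjusted p under 0.05). With offsets (a correction for GC content and length), Gata6, Sox7 and Foxa2 were higher in both and Sox17 in DXp, and none was lower. Foxa2 thus turned, to log2 differences of 1.62 and 1.05, while Gata4 (0.46 and -0.09) and Dab2 (0.29 and 0.14) lost their calls. Of all tested genes, 32.2% were higher and 40.1% lower in DXp, and 30.9% and 36.0% in DXp_DXm. With offsets these shares were 24.9% and 26.7%, and 21.8% and 21.8%. Ttr, the most abundant of 5 visceral endoderm markers, was at 3.36 to 6.71 CPM in WT_EV against 0.581 to 1.85 in DXp and DXp_DXm, and the other 4 (Afp, Apoa1, Apob and Amn) had 0 to 9 counts per group. Of the pluripotency genes, Pou5f1 had 24 counts in WT_EV and 0 in the deletion groups, and Nanog had 1 in WT_EV, 2 in DXp and 18 in DXp_DXm. In the same order, Zfp42 had 9, 0 and 2 and Esrrb 0, 1 and 2. Of the trophoblast genes, Eomes had 43, 64 and 43, Elf5 4, 2 and 18, Cdx2 4, 0 and 0, and Hand1 none. Eomes did not pass against WT_EV in the counts. With offsets it was higher in DXp and DXp_DXm, by 2.79 and 1.89 on the log2 scale (edgeR adjusted p = 0.00282 and 0.0224). RNA that lacks a poly(A) tail also separated the groups. The 7SK RNA gene Rn7sk ranged from 157188 to 255029 counts in WT_EV, against 2 to 7 in DXp and DXp_DXm. Of all counts, histone genes took 0.977% to 2.45% in WT_EV against 0.00129% to 0.00686% in DXp and DXp_DXm. Genes with over 60% GC took 3.02% to 3.25% and 0.0913% to 0.158%, in the same order. Over these 7 libraries the measures divide WT_EV from the deletion groups, so in comparisons with WT_EV they and the genotype cannot be told apart. The WT_clone libraries, also wild type, resembled the deletion libraries in their share of small RNA genes, as given below. In bulk RNA, fewer cells of a type and less RNA per cell cannot be told apart either.

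Hhip (ENSMUSG00000064325, chr8:79965851-80058006 on the minus strand, GRCm38) was almost silent in WT_EV and abundant in DXp, with DXp_DXm in between. It has no value here in the wild-type clones, since the part of the WT_clone counts analysed does not list it. In replicate order its counts were 0, 4 and 3 for WT_EV, 1704 and 3020 for DXp, and 205 and 79 for DXp_DXm. Scaled to depth, this was 0.116 ± 0.101 CPM (SD, n = 3) in WT_EV, 102 ± 20.8 CPM (n = 2) in DXp and 5.80 ± 3.82 CPM (n = 2) in DXp_DXm. The libraries of the 3 groups did not overlap.

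The fitted log2 difference of Hhip was 9.67 (SE 0.67) in DXp against WT_EV, the 13th highest of the 15331 genes tested. This is a fitted fold of 813. The ratio of the summed counts, scaled to depth, was 863, with a 95% counting interval of 419 to 2148 that covers counting error only, since WT_EV held 7 Hhip counts in all. In DXp_DXm against WT_EV the log2 difference was 5.53 (SE 0.66), the 123rd highest, a fitted fold of 46.3, and the ratio of summed counts was 47.6 (counting interval 22.8 to 119). The 2 DXp_DXm libraries were 8.5 and 3.10 CPM, and without the higher of them, replicate 1, the log2 difference from WT_EV was 4.71.

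DXp_DXm lay below DXp by a log2 difference of -4.13 (SE 0.57; 95% interval -5.71 to -2.55), the 52nd lowest of all genes tested. Leaving out DXp_DXm replicate 1 moved this to -5.03, and leaving out DXp_DXm replicate 2 moved it to -3.58. Both DXp_DXm libraries were below both DXp libraries. DXp_DXm cells carry the paternal deletion too, and their Hhip level lay between those of WT_EV and DXp in each library.

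**Figure D1:**
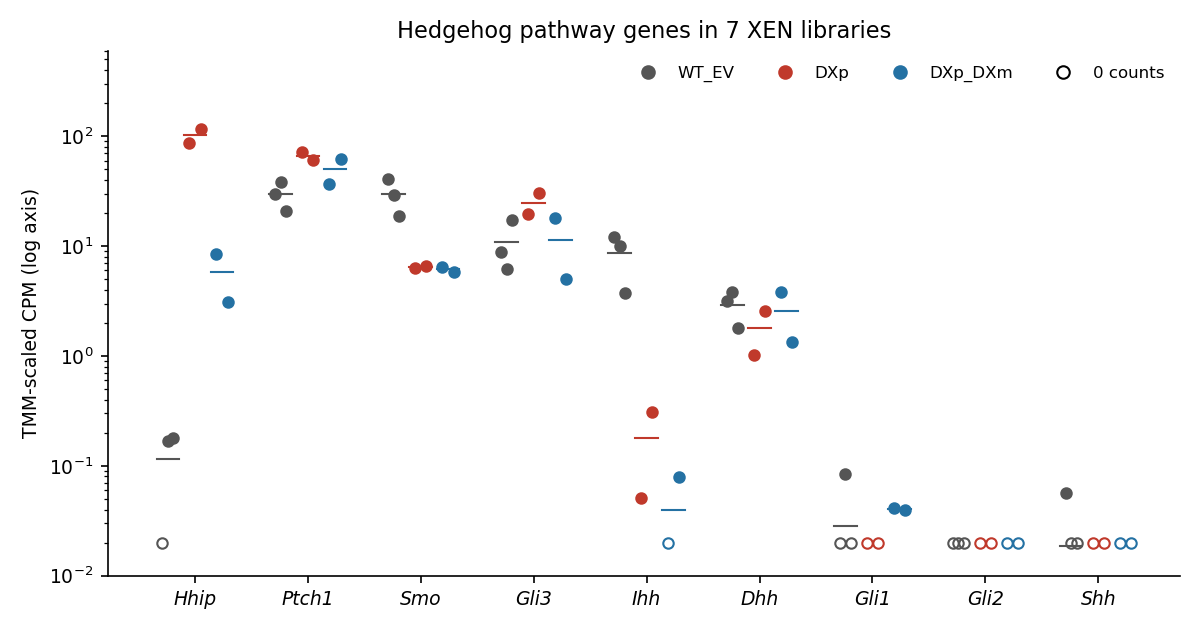
TMM-scaled CPM (log axis) of the 9 hedgehog pathway genes in each of the 7 libraries, with a bar at the group mean and open circles for libraries with 0 counts, drawn at the foot of the axis. Hhip sits near or below 0.18 CPM in WT_EV and at 87.1 and 117 CPM in DXp, Ihh sits at 3.72 to 12.2 CPM in WT_EV and below 0.31 CPM in the deletion libraries, and Gli1, Gli2 and Shh are at 0 to 2 counts everywhere.

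Ptch1 (ENSMUSG00000021466, chr13:63508328-63573598), the receptor that restrains SMO, was moderately higher in the counts of the deletion cells. Its levels were 30.0, 38.1 and 20.9 CPM in WT_EV, 71.6 and 61.0 CPM in DXp, and 37.0 and 62.7 CPM in DXp_DXm. Both DXp libraries lay above the 3 WT_EV libraries, while DXp_DXm replicate 1 fell among them. The log2 difference from WT_EV was 1.16 (SE 0.32) in DXp and 0.75 (SE 0.32) in DXp_DXm. These differences had the same direction as those of Hhip on a much smaller scale. They were near the medians of all tested genes of like GC content, as given below.

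Smo (ENSMUSG00000001761, chr6:29735503-29761365), the transducer, was lower in the counts of both deletion groups. It was at 40.9, 29.2 and 18.8 CPM in WT_EV, 6.29 and 6.52 CPM in DXp, and 6.43 and 5.85 CPM in DXp_DXm. The 4 deletion libraries lay between 5.85 and 6.52 CPM, below every WT_EV library. The log2 difference from WT_EV was -2.21 (SE 0.38) in DXp and -2.27 (SE 0.38) in DXp_DXm, and between the deletion groups it was -0.06 (SE 0.39; 95% interval -1.13 to 1.01).

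Of the 3 GLI factors, Gli3 was the one with counts to compare. Gli3 (ENSMUSG00000021318, chr13:15463235-15730026) is mainly known as the pathway's repressor form when no ligand is present. It was at 8.78, 6.24 and 17.5 CPM in WT_EV, 19.6 and 30.2 CPM in DXp, and 17.9 and 4.99 CPM in DXp_DXm. Both DXp libraries were above WT_EV, and the DXp_DXm libraries spanned the whole WT_EV range. The log2 difference from WT_EV was 1.21 (SE 0.56) in DXp and 0.08 (SE 0.57) in DXp_DXm. Gli1, an activator and a readout of pathway activity, had 2 counts in WT_EV replicate 2, 1 in each DXp_DXm library and 0 in the other 4. Gli2, the main activator in many tissues, had 0 counts in all 7 libraries. A floor of 3 counts over a group corresponds to 0.0516 CPM in WT_EV, 0.0660 CPM in DXp and 0.0605 CPM in DXp_DXm, and neither gene can be compared below it.

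Among the ligands, Ihh (ENSMUSG00000006538, chr1:74945315-74951672) was present in WT_EV and almost absent in the deletion libraries. Its counts were 217, 237 and 62 in WT_EV, 1 and 8 in DXp, and 0 and 2 in DXp_DXm, which is 8.64 ± 4.41 CPM (SD, n = 3), 0.180 ± 0.182 CPM (n = 2) and 0.0393 ± 0.0556 CPM (n = 2). The WT_EV level was 44.8 times that of DXp (95% counting interval 23.4 to 98.6) and 220 times that of DXp_DXm (60.6 to 1821). The lowest WT_EV library, at 3.72 CPM, was well above the highest deletion library, at 0.309 CPM. The fitted log2 differences from WT_EV were -5.47 (SE 0.92) in DXp and -7.56 (SE 1.09) in DXp_DXm. The first was -4.66 without DXp replicate 1 and -7.23 without DXp replicate 2, and the second -6.60 without DXp_DXm replicate 1 and -10.52 without DXp_DXm replicate 2. The visceral endoderm marker Ttr was lower in the same libraries, with log2 differences of -2.64 and -2.01 (edgeR adjusted p = 0.00392 and 0.0148), and -2.63 and -2.14 with offsets (edgeR adjusted p = 0.00764 and 0.0197). Its part in the Ihh differences was not tested.

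Dhh (ENSMUSG00000023000, chr15:98891152-98898540), a ligand best known from gonads and peripheral nerve, was low in all groups. It was at 3.15, 3.84 and 1.80 CPM in WT_EV, 1.02 and 2.59 CPM in DXp, and 3.81 and 1.34 CPM in DXp_DXm, so the groups overlapped. Its annotated span overlaps Rhebl1 on the same strand, which had 1279 counts over the 7 libraries, so Dhh counts may depend on how shared reads were assigned. Shh had 1 count in WT_EV replicate 1 and 0 elsewhere.

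Compared per gene length, the order of the 9 genes changed between groups. RPKM is the CPM per kilobase of the gene length given with the counts. In RPKM, WT_EV had Smo at 5.27 ± 1.96 first, then Ihh at 2.84 ± 1.45 and Ptch1 at 2.09 ± 0.607. Gli3 at 1.13 ± 0.613 and Dhh at 0.666 ± 0.236 followed (SD, n = 3), with Hhip at 0.0128 ± 0.0111. Each of the first 5 overlapped its neighbour in that order within the SDs. In DXp the first place was taken by Hhip at 11.2 ± 2.30 RPKM, followed by Ptch1 at 4.67 ± 0.532, Gli3 at 2.60 ± 0.781, Smo at 1.14 ± 0.0297, Dhh at 0.410 ± 0.251 and Ihh at 0.0591 ± 0.0598 (SD, n = 2). In DXp_DXm Ptch1 led at 3.51 ± 1.28 RPKM. Gli3 at 1.19 ± 0.950, Smo at 1.09 ± 0.0722, Hhip at 0.639 ± 0.420 and Dhh at 0.585 ± 0.399 followed, each overlapping its neighbour in this order within the SDs, and Ihh was last at 0.0129 ± 0.0182.

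The members differ in base composition, and in comparisons with WT_EV the size of a difference went with it across all genes. The median log2 difference in DXp against WT_EV was 2.03 for genes under 42% GC, 1.05 from 42% to 48%, -0.97 from 48% to 54%, -3.27 from 54% to 60% and -4.49 above 60%. In DXp_DXm against WT_EV the medians of these 5 classes were 1.61, 0.98, -0.59, -2.84 and -4.41. The longest Hhip transcript has 41.2% GC, Ptch1 47.8%, Gli3 48.4%, Dhh 53.8%, Smo 57.8% and Ihh 62.3%. Hhip was far above the median of its class in both comparisons. Ptch1, at 1.16 and 0.75, was near the medians of its class, 1.05 and 0.98. Smo was nearer 0 than the median of its class in both, and Ihh was beyond the median of its class in both.

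**Figure D2:**
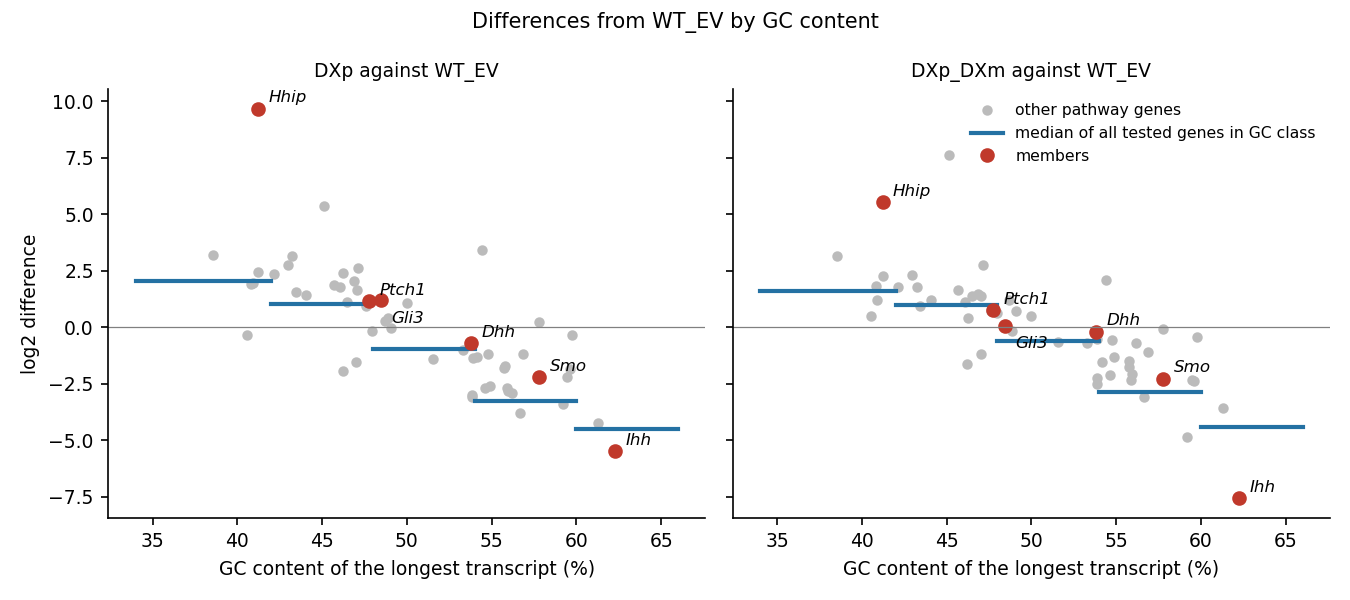
Log2 difference from WT_EV in DXp (left) and DXp_DXm (right) against the GC content of the longest transcript, for the 6 tested members (red), the other 49 tested pathway genes (grey) and the median of all tested genes in 5 GC classes (blue lines). Hhip, at 41.2% GC, lies at 9.67 and 5.53 where the class medians are 2.03 and 1.61, and Smo, at 57.8% GC, lies at -2.21 and -2.27 where they are -3.27 and -2.84.

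The counts were therefore also fitted with offsets, a correction in each library for the trend of counts with GC content and gene length. With offsets the Hhip difference from WT_EV was 7.67 (SE 0.69) in DXp and 4.01 (SE 0.72) in DXp_DXm. Smo changed sign, to 0.55 (SE 0.29) in DXp and 0.38 (SE 0.29) in DXp_DXm. Ptch1 came to 0.44 (SE 0.33) and 0.06 (SE 0.33), and Gli3 was at 0.71 and -0.46. The Ihh difference shrank to -1.86 (SE 0.79) in DXp and -4.06 (SE 1.02) in DXp_DXm. Dhh, -0.69 and -0.19 in the counts, was at 1.11 and 1.35 with offsets. Between the deletion groups, where the 5 GC class medians lay between -0.44 and 0.30, offsets moved Hhip from -4.13 to -3.66 (SE 0.58). Hhip thus stayed well above WT_EV in both deletion groups under either fit, while Smo and Ptch1 were within 2 SE of 0 with offsets.

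**Figure D3:**
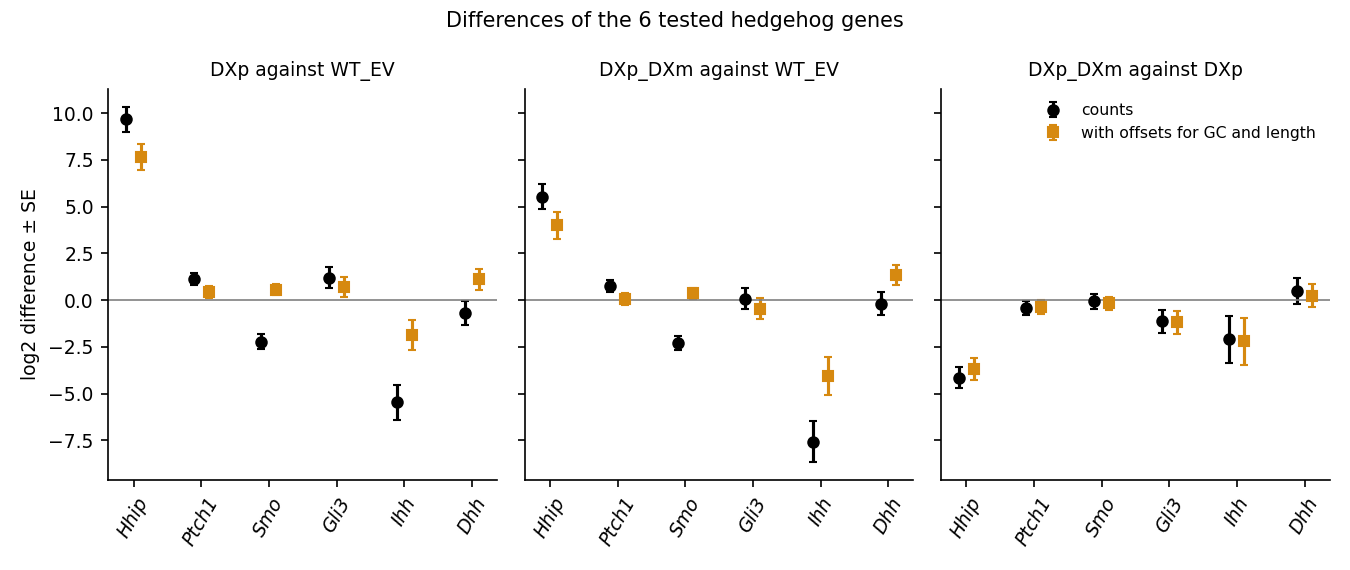
Log2 difference ± SE of the 6 tested members in the 3 comparisons, fitted to the counts (black circles) and with offsets for GC content and length (orange squares). Hhip stays at 7.67 and 4.01 above WT_EV with offsets, while Smo moves from -2.21 and -2.27 to 0.55 and 0.38, and in DXp_DXm against DXp both fits place Hhip below -3.6.

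At an adjusted p under 0.05 (edgeR quasi-likelihood test, Benjamini-Hochberg over all 15331 genes), 2 of the 6 tested members were higher and 2 lower in DXp than in WT_EV, where 32.2% of all tested genes were higher and 40.1% lower. In DXp_DXm against WT_EV 1 member was higher and 2 were lower, with 30.9% and 36.0% of all genes. In DXp_DXm against DXp no member was higher and 1, Hhip, was lower, with 0.280% and 0.163% of all genes. With offsets, 1 member was higher and none lower in DXp, against 24.9% and 26.7% of all genes. In DXp_DXm with offsets, 1 was higher and 1 lower, against 21.8% and 21.8%. Between the deletion groups with offsets no member passed, against 0.137% higher and 0.0978% lower. The call on Hhip between the deletion groups was lost without WT_EV replicate 1 (log2 difference -4.13), DXp replicate 1 (-4.38) or DXp replicate 2 (-3.91). The Ptch1 difference of DXp_DXm from WT_EV was 0.95 without WT_EV replicate 2, 0.84 without DXp replicate 1 and 1.16 without DXp_DXm replicate 1. For Gli3 the difference of DXp from WT_EV was 1.72 without WT_EV replicate 3, 1.29 without DXp_DXm replicate 1 and 1.22 without DXp_DXm replicate 2. Since these comparisons chose the members, nothing is read from the calls on single members or from their counts.

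The WT_clone libraries were not used in choosing the genes, and in the part of their table analysed here 2 of the members are listed, Ihh and Gli2. Gli2 had 0 and 1 counts in WT_clone replicates 1 and 2. Ihh had 93 and 12 counts. As CPM over the 11512 shared genes, scaled by TMM, Ihh was at 14.03 and 2.03 in WT_clone, 69.9, 57.0 and 21.4 in WT_EV, 0.224 and 1.37 in DXp, and 0 and 0.346 in DXp_DXm. The WT_clone libraries thus lay below every WT_EV library and above every deletion library. The nearest pair was WT_clone replicate 2, with 12 counts, and DXp replicate 2, with 8 counts, so their order rests on few reads.

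Only the WT_clone libraries are new here, since the Ihh counts of the other groups were known, so these differences are also a description with no p-value. Ihh in WT_clone differed from WT_EV by -2.61 on the log2 scale (SE 0.96). The difference from WT_clone was -3.24 (SE 1.13) in DXp and -5.34 (SE 1.35) in DXp_DXm. With offsets these 3 differences were -1.34, -1.20 and -3.21. Leaving out WT_clone replicate 1, the higher of the pair, gave -4.57, -1.24 and -3.33, and leaving out WT_clone replicate 2 gave -1.80, -4.03 and -6.15. The distance of WT_clone from the other groups thus depended on which of its libraries was used, and its direction did not.

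Genes over 60% GC took 0.171% to 0.190% of shared counts in WT_clone, 0.589% to 0.810% in WT_EV and 0.0134% to 0.0260% in DXp and DXp_DXm. The order of the groups was the same as for Ihh. Small RNA genes took 0.0143% to 0.0184% in WT_clone, 0.339% to 0.399% in WT_EV and 0.0235% to 0.0291% in DXp and DXp_DXm, so by this measure WT_clone resembled the deletion libraries. The part of library making in the Ihh differences was not tested beyond the offsets.

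**Figure D4:**
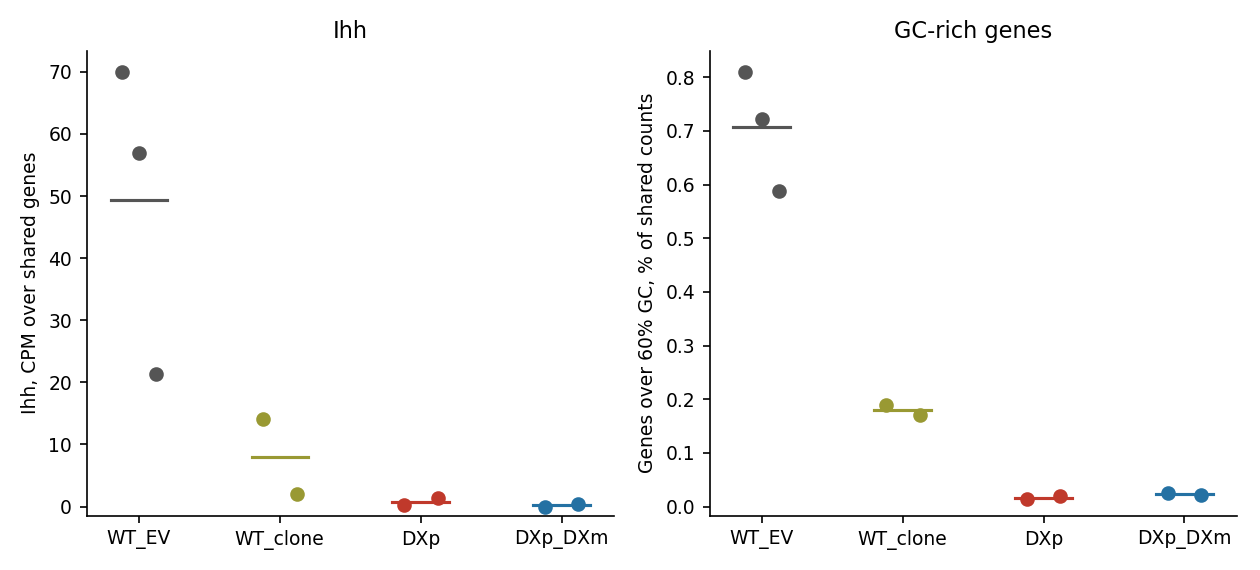
Ihh as CPM over the shared genes (left) and the percent of shared counts from genes over 60% GC (right) in the 9 libraries of 4 groups, with a bar at each group mean. Both measures are highest in WT_EV (21.4 to 69.9 and 0.589% to 0.810%), lower in WT_clone (2.03 and 14.03, and 0.171% to 0.190%) and lowest in the deletion libraries.

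Beyond the 9 genes, a list of 64 further pathway genes was grouped by role, and 49 of them were tested. In DXp against WT_EV 19 rose and 21 fell, with a median log2 difference of -0.15 against -0.35 for all genes tested. In DXp_DXm against WT_EV 18 rose and 16 fell, with a median of -0.09 against -0.15. In DXp_DXm against DXp none rose and 1 fell. With offsets the counts were 16 higher and 8 lower in DXp, 14 and 4 in DXp_DXm, and none between the deletion groups. The percentages of all genes given above are the background for these counts.

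Of these pathway genes, 12 could also be tested with the WT_clone libraries, over 3302 shared genes. In WT_clone against WT_EV 4 rose and none fell, where 30.6% of shared genes passed. In DXp against WT_clone 3 rose and 3 fell, where 40.2% passed, and in DXp_DXm against WT_clone 1 rose and 3 fell, where 25.0% passed. With offsets 3, 2 and 2 of the 12 passed in these comparisons, and when 1 library was left out 2 to 5, 3 to 7 and 1 to 4. WT_clone and WT_EV are both labelled wild type. Cul3, a ligase scaffold, and Gpc3, a glypican that binds hedgehog ligand, differed between them and are named here after their values were seen. Cul3 in WT_clone was above WT_EV by 1.66 on the log2 scale (edgeR adjusted p = 0.00344), and by 1.54 with offsets (edgeR adjusted p = 0.00299). It was above WT_clone by 1.15 in DXp and 1.11 in DXp_DXm (edgeR adjusted p = 0.0121 and 0.0216), but with offsets the differences were -0.04 and 0.31 (edgeR adjusted p = 0.955 and 0.484). Without WT_clone replicate 1 that in DXp_DXm was 0.97, and it did not pass. Without DXp replicate 1 that in DXp was 0.88, and without DXp_DXm replicate 2 that in DXp_DXm was 0.94, and neither passed. Gpc3 in WT_clone was above WT_EV by 2.12 (edgeR adjusted p = 0.00622; 2.42 with offsets). The deletion groups lay below WT_clone, at -2.65 in DXp and -1.90 in DXp_DXm (edgeR adjusted p = 0.00254 and 0.0178), and at -2.59 and -2.05 with offsets (edgeR adjusted p = 0.00998 and 0.0400). The call in DXp_DXm was lost without DXp_DXm replicate 1 (-1.50) or WT_clone replicate 2 (-1.21).

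Of the 7 genes for making and releasing ligand, 4 were tested. All 4 fell in DXp, where 40.1% of all tested genes fell. Disp1, which releases lipid-bearing ligand from the cell, had a log2 difference of -1.79 (SE 0.46), Hhat, which adds palmitate to the ligand, -1.53 (SE 0.58), and the secreted carriers Scube2 and Scube3 -1.38 (SE 0.35) and -2.92 (SE 1.11). The edgeR adjusted p of the 4 lay between 0.00510 and 0.0362. In DXp_DXm, where 36.0% of all tested genes fell, 1 of the 4 fell, Disp1, at -1.74 (SE 0.45, edgeR adjusted p = 0.00668). With offsets the call on Hhat held (-2.39, edgeR adjusted p = 0.00647 in DXp), Disp1 was at 0.47 and 0.36, and no other call held. With offsets 1 of the 4 was lower in each deletion group, where 26.7% and 21.8% of all tested genes were lower. Hhat in WT_clone differed from WT_EV by -1.89 with offsets (edgeR adjusted p = 0.0431) and by -1.32 in the counts (edgeR adjusted p = 0.118). Against WT_clone, Hhat with offsets was at -0.76 in DXp and -0.43 in DXp_DXm (edgeR adjusted p = 0.450 and 0.738). Without DXp replicate 1 none of the 4 calls in DXp held, with log2 differences of -1.20 for Disp1, -0.80 for Scube2, -1.03 for Hhat and -3.79 for Scube3. The calls on Hhat and Scube3 were also lost without WT_EV replicate 1 (-1.49 and -2.74) or replicate 2 (-1.32 and -2.44), that on Scube3 without DXp replicate 2 (-2.25), and that on Hhat without DXp_DXm replicate 1 (-1.45). Hhat also missed the threshold with DESeq2 (-1.41, adjusted p = 0.0526) and, in edgeR, with no filter on low counts (-1.53, adjusted p = 0.0538) or with only the groups compared (-1.39, adjusted p = 0.0511). The Disp1 call in DXp_DXm was lost without DXp_DXm replicate 2 (-1.46).

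Of 6 further receptors and co-receptors, 5 were tested and 2 fell in both deletion groups. The shares of all tested genes that fell were 40.1% in DXp and 36.0% in DXp_DXm. Boc, a co-receptor that helps ligand reach PTCH1, was at 43.2, 43.4 and 29.5 CPM in WT_EV, 5.98 and 5.06 CPM in DXp, and 12.3 and 6.44 CPM in DXp_DXm. It fell, with log2 differences of -2.81 (SE 0.38) and -2.05 (SE 0.37) and edgeR adjusted p of 0.000105 and 0.000769. The co-receptors Cdon and Lrp2 and the glypican Gpc3 did not pass in either comparison with WT_EV. With offsets none of the 5 passed, and Boc was at -0.28 and 0.23.

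The group acting at the cilium was split, with 7 genes higher and 11 lower of 20 tested in DXp, and 7 and 10 in DXp_DXm. Shares of all tested genes were 32.2% higher and 40.1% lower in DXp, and 30.9% and 36.0% in DXp_DXm. Ift88, needed to build the cilium, rose by 2.43 (SE 0.31) and 2.29 (SE 0.31) on the log2 scale. Grk2, a kinase that acts on SMO, fell, at -3.79 (SE 0.37) and -3.06 (SE 0.36), as did Iqce, at -2.99 and -2.50. Sufu, which holds GLI proteins in the cytoplasm, and Kif7, a kinesin at the cilium tip, are outside the naming rule and were chosen for their central roles. Sufu was at 25.8, 40.1 and 20.2 CPM in WT_EV, 8.38 and 9.34 CPM in DXp and 10.03 and 10.2 CPM in DXp_DXm, with log2 differences of -1.69 (SE 0.35) and -1.51 (SE 0.35). Kif7 fell too, at -1.86 (SE 0.37) and -2.36 (SE 0.38). The edgeR adjusted p of these 10 calls was at most 0.0035. With offsets Ift88 was at 0.74 and 0.93 and Iqce at -1.62 and -1.25, and both passed in each comparison. Grk2 (-1.08 and -0.56) passed in DXp and not in DXp_DXm, while Sufu was at 0.44 and 0.50 and Kif7 at 1.23 and 0.66. With offsets 5 genes of this role were higher and 5 lower in DXp, and 3 and 2 in DXp_DXm. The shares of all tested genes with offsets were 24.9% and 26.7%, and 21.8% and 21.8%.

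Most kinases and ubiquitin ligase parts that act on GLI proteins rose, 8 of 12 in each deletion group, and 1 fell in each. Of all tested genes, 32.2% rose and 40.1% fell in DXp, and 30.9% and 36.0% in DXp_DXm. Csnk1a1, a casein kinase that marks GLI proteins for processing, was at 166, 184 and 186 CPM in WT_EV, 1687 and 1541 CPM in DXp, and 561 and 656 CPM in DXp_DXm. It rose by 3.18 (SE 0.22) and 1.77 (SE 0.21) on the log2 scale, and the difference of DXp_DXm from DXp was -1.41 (SE 0.24, edgeR adjusted p = 0.0424). Cul3 rose by 3.19 and 3.18 (SE 0.26 each), and Itch by 2.34 and 1.77. Prkaca, the catalytic subunit of protein kinase A, was the gene that fell, at -2.58 (SE 0.32) in DXp and -1.29 (SE 0.30) in DXp_DXm. The largest edgeR adjusted p of these calls against WT_EV was 0.00351, that of Prkaca in DXp_DXm. With offsets 6 were higher and 1 lower in DXp, and 5 and 1 in DXp_DXm, against 24.9% and 26.7%, and 21.8% and 21.8%, of all tested genes. Cul3 kept its calls against WT_EV (1.31 and 1.79; against WT_clone it did not pass with offsets, as given above), Csnk1a1 kept that in DXp (1.36) and not that in DXp_DXm (0.29), Itch kept neither (0.36 and 0.20), and Prkaca was at -0.05 and 0.92. The lower gene with offsets was Btrc, a ligase subunit outside the naming rule, at -2.59 and -1.19. The Csnk1a1 difference between the deletion groups did not pass with offsets (-1.07, edgeR adjusted p = 0.0625). It passed without WT_EV replicate 3, and it did not pass without any 1 of the other 6 libraries, at -1.52 to -1.30. Like Cul3, Itch was higher in WT_clone than in WT_EV, by 0.70 on the log2 scale (edgeR adjusted p = 0.0398). With offsets that Itch difference was 0.06 (edgeR adjusted p = 0.872).

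Of 17 genes known as hedgehog targets in other tissues, 8 had enough counts to be tested. In DXp 4 rose and 3 fell, where 32.2% of all tested genes rose and 40.1% fell. In DXp_DXm 3 rose and 2 fell, where 30.9% and 36.0% of all tested genes did so. Ccnd2, a cyclin of G1, was at 69.2, 76.1 and 139 CPM in WT_EV, 577 and 588 CPM in DXp, and 714 and 574 CPM in DXp_DXm, a rise of 2.62 and 2.77 (SE 0.31 each). Foxf1, a classic hedgehog target in gut mesoderm, had 2, 4 and 0 counts in WT_EV, 21 and 30 in DXp, and 11 and 11 in DXp_DXm. It rose by 3.41 (SE 0.78, edgeR adjusted p = 0.00281) and 2.09 (SE 0.82, edgeR adjusted p = 0.0434). Foxf1 met the filter on low counts through the deletion groups, so its differences and calls, also with offsets, rest on a WT_EV group near 0. Cdk6, which partners D cyclins, had 1 count in all of WT_EV, 1 and 45 in DXp, and 164 and 51 in DXp_DXm, so its fitted fold rests on a group near 0. Foxm1, a cell cycle factor, fell, at -2.67 (SE 0.29) and -2.10 (SE 0.28), and so did Rab34, a cilium GTPase, at -2.18 and -2.33 (SE 0.35 each). With offsets 5 were higher and 1 lower in DXp, and 6 and 0 in DXp_DXm. Shares of all tested genes with offsets were 24.9% and 26.7% in DXp, and 21.8% and 21.8% in DXp_DXm. Ccnd2 (1.81 and 1.99) and Foxf1 (5.78 and 4.10) kept their calls, Foxm1 kept that in DXp (-0.77) and not that in DXp_DXm (-0.42), and Rab34 changed sign, to 1.31 and 1.0.

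**Figure D5:**
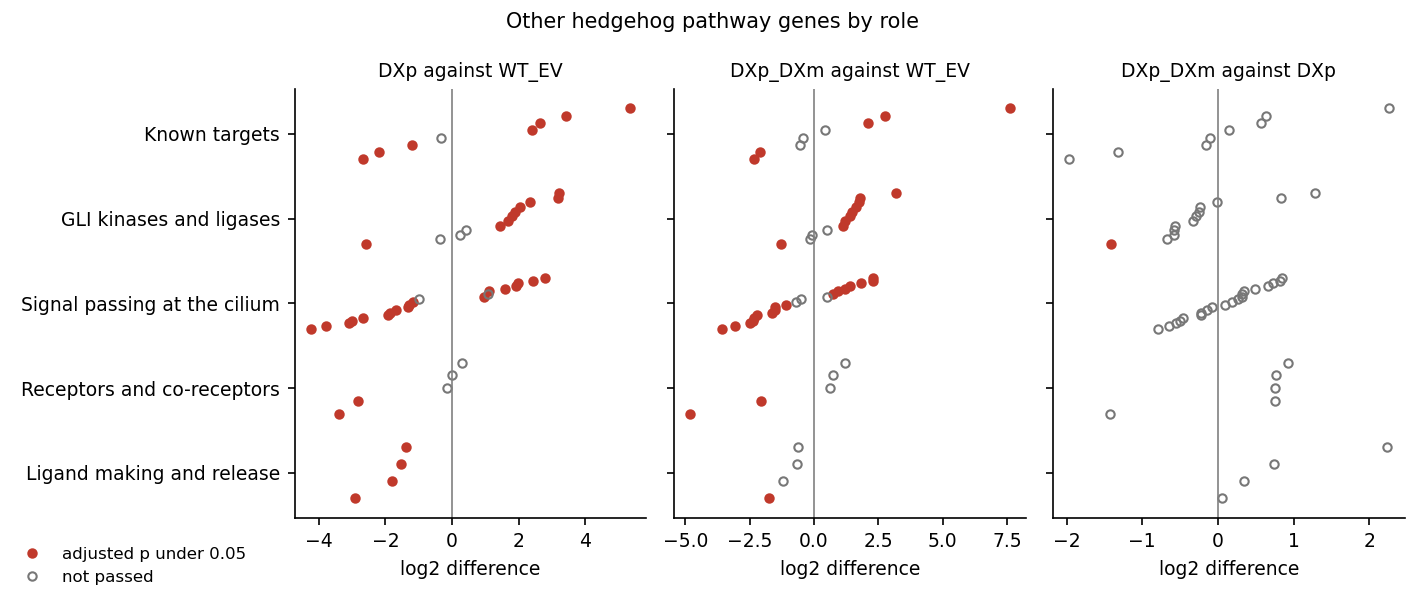
Log2 differences of the 49 tested pathway genes beyond the members, in 5 roles and 3 comparisons, with filled points for an edgeR adjusted p under 0.05. The 12 GLI kinases and ligases lie mostly to the right of 0 in both comparisons with WT_EV, the cilium genes lie on both sides, and in DXp_DXm against DXp 1 gene, Csnk1a1 at -1.41, is filled.

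The genes nearest to Hhip on chromosome 8 had much smaller differences. On the side of lower coordinates the 3 nearest tested genes were Anapc10, Abce1 and Otud4, at 187, 254 and 288 kb, and their log2 differences in DXp against WT_EV were 1.65, 1.96 and 2.0. On the other side were the pseudogene Gm5909 at 52.8 kb, Smarca5 at 641 kb and Gm45872 at 670 kb, with 2.89, 2.71 and 0.44. In DXp_DXm against WT_EV the 6 genes, in the same order, were at 1.61, 1.75, 1.66, 3.21, 2.28 and -2.23. Between the deletion groups they lay between -2.67 for Gm45872 and 0.32 for Gm5909, and the protein-coding ones between -0.42 and -0.04, where Hhip was at -4.13. Of the 4 protein-coding neighbours, Anapc10, Abce1 and Smarca5 are under 42% GC, a class with a median of 2.03 in DXp, and Otud4 has 43.2% GC, in a class with a median of 1.05.

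The 5 genes whose log2 CPM over the 7 libraries was most like that of Hhip, among 10115 eligible genes, were Rbm12b2, Zfp24, Yap1, Sirt1 and Prex1, with Pearson correlations of 0.997 to 0.994. The libraries share their depth and base composition by group, so the likeness describes the order WT_EV, DXp_DXm, DXp. Prex1 came nearest in size, at 0.169, 6.37 and 1.02 CPM in WT_EV, DXp and DXp_DXm, while Yap1 was at 110, 246 and 165 CPM.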

How the data were processed

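Raw gene counts were deposited in 2 tables, 1 with the 7 libraries of WT_EV, DXp and DXp_DXm and 1, analysed here in part (11512 genes), with the 2 WT_clone libraries. Per the submitters' processing notes, the authors used FastQC, STAR 2.7.9a, featureCounts 2.0.1 and GRCm38 (mm10). No source used here gives the strand setting or annotation release. Per the labels' protocols, total RNA was made into libraries with 1 of 2 stranded kits, and which library used which is not given. Counts were filtered (filterByExpr), scaled by TMM and fitted with edgeR 4.0.16 (robust quasi-likelihood; R 4.3.3) on group, and p-values were adjusted by Benjamini-Hochberg across every tested gene. All 3 groups shared 1 estimate of the spread, a biological coefficient of variation of 33.7%. Intervals use a t distribution with 4 degrees of freedom. Symbols and GC content come from GENCODE M21, and gene length was given with the counts. Offsets were splines (5 degrees of freedom) of log-CPM on GC and length in each library. The fit was tested on simulated data, and the outcome is not reported here. Comparisons with WT_clone used shared genes. The members and gene lists were chosen with earlier results of these data known. All 9 members were named, with up to 4 pathway genes of lowest p per role, 3 neighbours per side and the 5 genes most like Hhip (prior count 2, mean of at least 2 CPM). Some pathway genes that this rule takes are counted and not reported here by name. Alternatives were DESeq2 1.42.0, its size factors, no filter, only the groups compared, offsets, a replicate block, leaving out each library (where 1 is left in a group, it is assumed to vary like the others) and, chosen after seeing the data, scaling on protein-coding genes other than histone and mitochondrial ones.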

Additional observations from a re-analysis of the deposited data

How the results depend on the processing

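The Hhip difference from WT_EV kept its direction in every alternative run. In DXp it was 9.67, with 7.67 under the GC and length offsets and 9.13 to 10.07 when 1 library was left out. In DXp_DXm it was 5.53, with 4.01 under the offsets and 4.71 to 6.10 when 1 library was left out. In DXp_DXm against DXp it was -4.13, and -5.03 to -3.58 when 1 library was left out. Same-numbered libraries of different groups did not deviate together (correlations of -0.07, 0.08 and -0.20 over genes), so the numbers were not taken as pairs. The replicate block, which removes the weight of WT_EV replicate 3 because no other group has that number, gave 9.98, 5.77 and -4.21 for these 3 differences. Smo turned from -2.21 to 0.55 in DXp and from -2.27 to 0.38 in DXp_DXm under the offsets.

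The number of pathway genes past the threshold was 40 in DXp and 34 in DXp_DXm against WT_EV, and 24 and 18 under the offsets. In DXp_DXm against DXp it was 1, and 3 with DESeq2, 4 with no filter on low counts, 0 with only the groups compared, 0 under the offsets, 0 with the replicate block and 0 to 1 when 1 library was left out. Crossing the replicate numbers of DXp, an alternative chosen after seeing the data since 1 of the correlations was -0.20, gave 40, 34 and 3. Of 38 calls on pathway genes taken by the naming rule, with Sufu and Kif7 added, 16 held under the offsets, 13 lost the threshold and 9 turned: Rab34 to 1.31 and 1.0, Disp1 to 0.47 and 0.36, Kif7 to 1.23 and 0.66 and Sufu to 0.44 and 0.50, in DXp and DXp_DXm, and Boc to 0.23 in DXp_DXm.

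Ihh in WT_clone against WT_EV, -2.61, was -2.74 with DESeq2, -2.57 with no filter and -4.57 to -1.80 when 1 library was left out. DXp against WT_clone, -3.24, was -3.05 with the replicate block, -1.20 under the offsets and -5.03 to -1.24 when 1 library was left out. DXp_DXm against WT_clone, -5.34, was -3.21 under the offsets and -8.29 to -3.33 when 1 library was left out. The causes of these changes were not tested beyond what the settings themselves alter. With 2 or 3 libraries per group and 0 to 8 Ihh counts in the deletion libraries, depth limits the size of the Ihh differences.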
